A study of Danio rerio with 8 samples.

Results

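Among the protein-coding genes measured in zebrafish embryonic eyes, 24 were read in 1 group of libraries and almost unread in the other. They were selected on their measured FPKM values (fragments per kilobase of gene, scaled to library size): the highest value in 1 group was under 0.2 and the lowest in the other was at least 0.6. The rule covered 22831 protein-coding genes of chromosomes 1 to 25 without 4 and 18 and without *olig4*, in a table of 37114 rows. Of the 24 genes, 17 were read in the libraries labelled *flrt2*-KO and 7 in the WT libraries. The 24 were 0.164% of the 14590 covered genes with a mean of at least 0.6 FPKM in a group. The difference between the groups is therefore how they were chosen, and it is given as a description without a test. All 24 also passed the limma call, an adjusted p under 0.05 and more than 2-fold, 17 of them upward and 7 downward in the libraries labelled *flrt2*-KO. Over all rows tested, 3.59% were called higher and 3.35% lower, and since the rule used the same contrast nothing is read from this count. The word unread holds strictly for 4 of the 24, which had 0 reads in the low group, and the other 20 held 1 to 59 reads there.

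A gene can look present in 1 group of fish and absent in another when its transcription differs, and also when the fish carry different versions of the locus and the reads of 1 version align elsewhere. Zebrafish strains are not fully inbred and hold much sequence and gene-copy variation between individuals. The GRCz11 assembly lists alternate contigs, which are further versions of some chromosomal stretches. Reads of a gene can be placed on its copy there, and the table lists unannotated rows on such contigs, which may include such copies. Large fish gene families, such as those with NACHT, SPRY, C-type lectin or immunoglobulin domains, are known for copies that vary between fish. FPKM of 1 row cannot by itself tell these situations apart.

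The 4 WT libraries carry titles that begin with AB and the genotype label wildtype. The 4 others carry titles that begin with CH1359 and the genotype label *flrt2* mutant. The mutant line was made with Cas9 and carries a deletion of 20 bp in *flrt2*, which encodes a fibronectin leucine-rich transmembrane protein. Founders were crossed into the AB background and heterozygotes were intercrossed, and no other allele or agent is named for either group. The eyes of embryos at 36 hours post fertilization (hpf) were pooled, about 40 to a library. The sample labels name retina as the tissue and the study methods name eyes. Nothing says whether the pools came from separate clutches, so the spread between libraries may be technical in part. In pooled tissue, fewer cells of a type and less RNA per cell cannot be told apart.

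FPKM multiplied back by gene length gave 13423932 to 14835885 whole reads per library. Retina markers summed to 301 to 408 FPKM in WT and 292 to 389 in the libraries labelled *flrt2*-KO, so the labelled tissue was present in both. Similar sums hid single markers that stood apart in both directions. *atoh7* had 64.5 to 105 FPKM in WT and 20.1 to 33.7 in the others, and *rx1* had 14.7 to 26.8 and 27.7 to 33.3. Lens markers were also present, with a lower sum in every library labelled *flrt2*-KO, at 538 to 789 FPKM in WT and 341 to 514 in the others. Of these markers only *crygm2d1* stood apart, at 266 to 412 FPKM in WT and 98.6 to 205 in the others. *cryba2a*, *lim2.4* and *foxe3* overlapped, and the mean of *foxe3* was 5.49 FPKM in WT and 6.82 in the others. Of 4 blood markers, the globins *hbbe1.1* and *hbbe2* were lower in every library labelled *flrt2*-KO than in any WT library, and *hbae3* overlapped, at 675 to 1195 FPKM in WT and 276 to 684 in the others. *gata1a*, which is no globin, was barely read and overlapped, with a mean of 0.117 FPKM in WT and 0.197 in the others. The blood sum was 1002 to 1835 against 367 to 921 FPKM. The yolk and liver sum was 15.9 to 27.2 against 4.64 to 9.29 FPKM, with *fabp10a* at 0 in the WT libraries. The sums of pigment epithelium, macrophage, muscle, endothelium and non-retinal brain markers all overlapped between the groups. For pigment epithelium the sum was 259 to 373 FPKM in WT and 296 to 360 in the others. The part of these cell types in the results below was not tested. By RT-qPCR, the study reported lower *flrt2* mRNA in mutants, measured in larval brain at an earlier age. In the eye libraries the targeted gene *flrt2* was not lower where they carry its name, at 2.25 to 2.55 FPKM in WT and 2.80 to 3.99 in the others. Directions below are therefore given between the libraries as labelled.

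**Figure D1:**
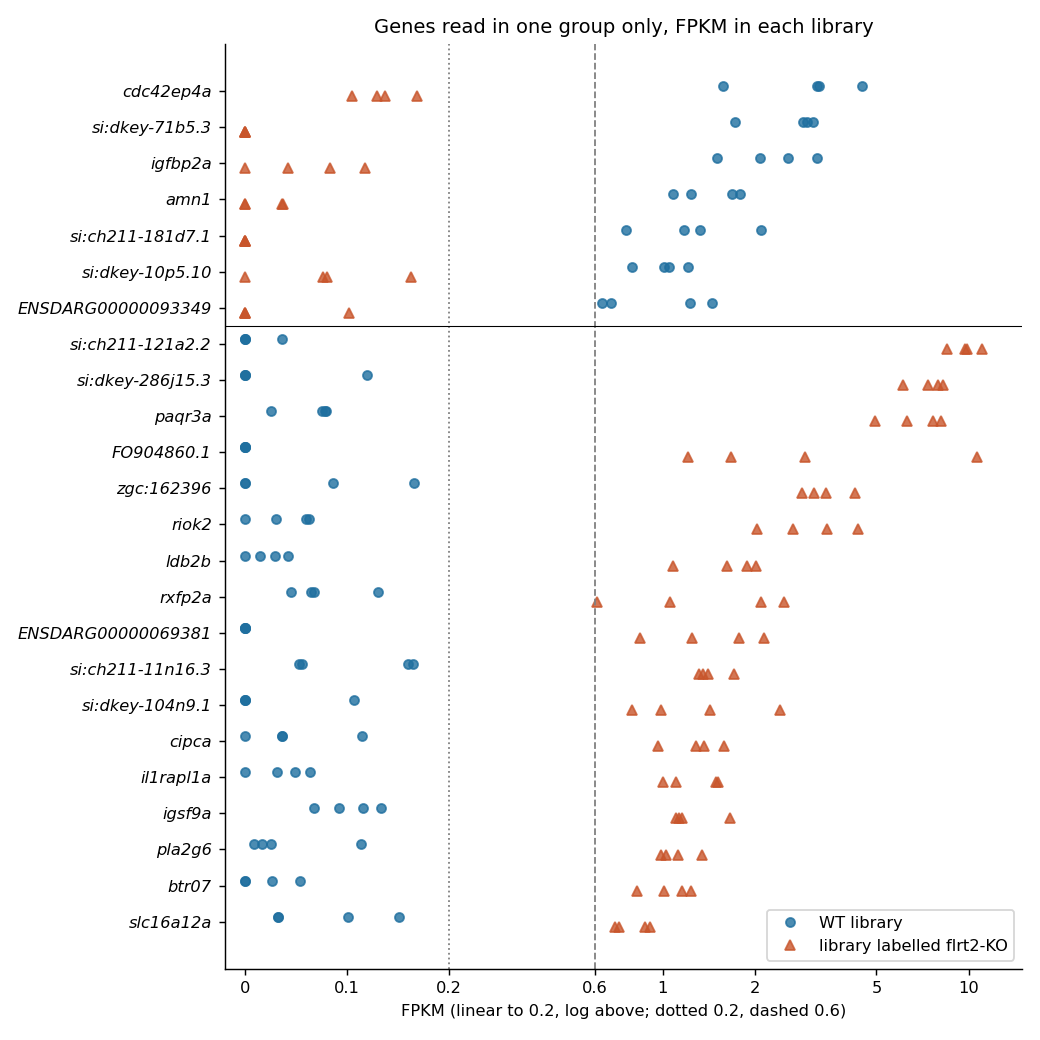
FPKM of the 24 genes in each of the 8 libraries, with circles for WT and triangles for the libraries labelled *flrt2*-KO, on an axis that is linear to 0.2 and logarithmic above. Points that coincide overlap, most often at 0. The 17 genes below the black line lie right of 0.6 FPKM in the triangles, and the 7 above it in the circles.

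The largest contrast was in *si:ch211-121a2.2* (ENSDARG00000039682, chromosome 20, 7070634 to 7080470, minus strand, GRCz11), which matches the dual specificity phosphatase DUPD1. The libraries 12_16, 1_19, 2_17 and 1_8_ysy labelled *flrt2*-KO held 11.1, 9.85, 8.50 and 9.70 FPKM. WT 1_19 held 0.0360 FPKM, which is 1 read, and the other WT libraries held 0. The groups held 1014 reads against 1, a ratio of 1104 per read of library size with a 95% counting interval of 198 to 43633. Intervals and floors given here cover counting error only. The next annotated genes on either side that could be tested, *sirt5*, which encodes a mitochondrial deacylase, and *si:ch211-121a2.4*, were not called. *sirt5* had 3.97 ± 0.729 and 4.05 ± 0.794 FPKM (SD, n = 4) in WT and in the libraries labelled *flrt2*-KO.

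Signalling and ribosome genes were among those read in the libraries labelled *flrt2*-KO. *paqr3a* (chromosome 5, 39154617 to 39171302) encodes a membrane protein that in mammals holds Raf kinase at the Golgi. It had 7.67, 4.96, 8.13 and 6.29 FPKM in 12_16, 1_19, 2_17 and 1_8_ysy, and 0.0758, 0.0784, 0.0791 and 0.0253 in WT 12_16, 1_19, 1_8 and 1_8_ysy. All 4 WT values come from 1 to 3 reads each. *riok2* (chromosome 5, 41639693 to 41645058) encodes an atypical kinase that in yeast and human cells acts in maturation of the small ribosomal subunit. Its values in the same order were 2.03, 2.67, 4.36 and 3.44 FPKM, against 0.0300, 0, 0.0626 and 0.0600 in WT. That the lowest of the 4 high libraries stood above the highest WT library follows from the rule.

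*ldb2b* (chromosome 1, 22805398 to 22834824) encodes a LIM domain-binding protein, an adaptor of LIM homeodomain transcription factors. It had 1.08, 1.62, 1.88 and 2.01 FPKM in 12_16, 1_19, 2_17 and 1_8_ysy labelled *flrt2*-KO, and 0.0425, 0.0146, 0.0295 and 0 in the WT libraries. *zgc:162396* (chromosome 9, 28688574 to 28691972) carries a methyltransferase domain and had 3.13, 2.86, 3.41 and 4.24 FPKM against 0.166, 0.0860, 0 and 0 in WT. *cipca* (chromosome 17, 44756247 to 44761580) matches the CLOCK-interacting pacemaker, a repressor of the CLOCK factor in mammals. It was read at 0.968 to 1.59 FPKM against 0 to 0.115 in WT. The WT libraries held 5 or 6 reads of each of the 3 genes in all.

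Lipid and transport genes followed at lower levels. *pla2g6* (chromosome 22, 29087308 to 29130549) encodes a calcium-independent phospholipase A2 that remodels membrane phospholipids. It was read at 0.987 to 1.34 FPKM in the libraries labelled *flrt2*-KO and at 0.00880 to 0.113 in WT, where 13 of its 19 reads were in WT 1_19. *slc16a12a* (chromosome 17, 23578316 to 23596969) encodes a monocarboxylate transporter whose human counterpart is linked to juvenile cataract. It had the lowest mean of the 17, 0.801 ± 0.106 FPKM against 0.0792 ± 0.0577 (SD, n = 4), and 178 reads against 19, a ratio of 10.2 (95% counting interval 6.34 to 17.3).

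Cell-surface receptors and adhesion proteins were also among the 17. *igsf9a* (chromosome 10, 19026988 to 19093808) encodes an immunoglobulin superfamily adhesion protein and is the longest of the 24, with 9534 bases of exon. It had 1.11, 1.13, 1.16 and 1.65 FPKM in 12_16, 1_19, 2_17 and 1_8_ysy labelled *flrt2*-KO, and 0.0680, 0.134, 0.0923 and 0.116 in WT. With 59 WT reads it was the most read of the 24 in the low group, and at its length those reads stay under 0.2 FPKM. *il1rapl1a* (chromosome 9, 29716380 to 29985390) encodes an interleukin-1 receptor accessory-like protein, which in mammals organises synapses. It was read at 1.004 to 1.51 FPKM against 0 to 0.0636 in WT. *rxfp2a* (chromosome 10, 33744098 to 33867426) encodes a relaxin family receptor and varied most among the named genes, with 2.50, 1.06, 0.610 and 2.09 FPKM against 0.0651, 0.0449, 0.0680 and 0.130 in WT.

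Further genes read in the libraries labelled *flrt2*-KO belong to families with many copies in fish. *btr07* (chromosome 7, 16231363 to 16237861) is a bloodthirsty-related gene with RING, B-box and SPRY domains, the arrangement of TRIM ubiquitin ligases. It was read at 0.823 to 1.24 FPKM against 0 to 0.0535 in WT, or 142 reads against 3, a ratio of 51.5 (95% counting interval 17.3 to 253). *si:dkey-286j15.3* (chromosome 22, 29990448 to 30000826) matches stonustoxin subunit beta, a protein first known from stonefish venom, and carries the SPRY-associated domain. Its values were 6.12, 7.95, 7.36 and 8.27 FPKM in 12_16, 1_19, 2_17 and 1_8_ysy, with 0.120 in WT 1_8_ysy and 0 in the other WT libraries. WT held 2 reads in all against 446, a ratio of 243 (95% counting interval 66.8 to 2010). The gene ENSDARG00000069381 (chromosome 9, 33061564 to 33063083) matches ladderlectin, a fish C-type lectin, and had 12, 18, 8 and 20 reads against 0 in WT. With a floor of 3 reads over the group, it was at least 21.0-fold higher.

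The other 3 of the 17 have no protein match in the table. *FO904860.1* (chromosome 7, 6908131 to 6933098) is the shortest of the 24, with 123 bases of exon, so few reads gave a high FPKM. It had 2.92, 1.68, 10.7 and 1.21 FPKM in 12_16, 1_19, 2_17 and 1_8_ysy, which are 5, 3, 18 and 2 reads, and 0 in WT, at least 10.2-fold higher. It overlaps *ccs*, which lies on the other strand and had 1.61 ± 0.699 FPKM in WT and 1.52 ± 0.826 in the others (SD, n = 4). The strand setting of the counting is not stated, so their reads cannot be told apart. *si:dkey-104n9.1* (chromosome 8, 12843300 to 12847483) had 0.797 to 2.42 FPKM against a single WT read. *si:ch211-11n16.3* (chromosome 15, 14246103 to 14248047) had 1.32 to 1.71 FPKM against 0.0532 to 0.165 in WT.

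Of the 7 genes read in WT, *cdc42ep4a* (chromosome 3, 50951203 to 50998577) had the highest mean. It encodes an effector of the small GTPase Cdc42, and such effectors organise actin and septins. WT 12_16, 1_19, 1_8 and 1_8_ysy held 3.21, 1.58, 4.49 and 3.24 FPKM, and 12_16, 1_19, 2_17 and 1_8_ysy labelled *flrt2*-KO held 0.169, 0.129, 0.137 and 0.105. *igfbp2a* (chromosome 6, 20921542 to 20952187) encodes a secreted protein that binds insulin-like growth factors. Its values were 2.08, 3.19, 1.51 and 2.56 FPKM in WT and 0, 0.118, 0.0835 and 0.0426 in the others. *amn1* (chromosome 25, 28893615 to 28903894), whose yeast counterpart restrains exit from mitosis, had 1.79, 1.68, 1.08 and 1.23 FPKM in WT against 0.0360, 0, 0 and 0.0373. The values in the others stand for 2 reads of *amn1* in all.

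*si:ch211-181d7.1* (ENSDARG00000091847, chromosome 15, 42723126 to 42736433) matches NLRC3 and carries the fish-specific NACHT-associated domain of NOD-like receptors. It had 2.10, 1.18, 1.32 and 0.759 FPKM in WT and 0 reads in all libraries labelled *flrt2*-KO, where 291 WT reads make it at least 89.1-fold lower. *si:dkey-71b5.3* (chromosome 16, 22015648 to 22022456), with no protein match, had 3.09, 2.97, 1.73 and 2.87 FPKM in WT and also 0 reads in the others, at least 58.2-fold lower. The table gives the symbol *si:ch211-181d7.1* also to ENSDARG00000088274, which starts 29.7 kb away and held 3 reads in WT and 0 in the others, and ENSDARG00000091847 is si:ch211-181d7.2 in the reference table of gene names. ENSDARG00000091847 and *si:dkey-71b5.3* are the WT genes with a complete absence of reads in the other group. The gene ENSDARG00000093349 (chromosome 9, 19681569 to 19762801), with immunoglobulin V-set and CD80-like domains, had 0.634, 1.45, 1.23 and 0.680 FPKM in WT and 0, 0, 0.102 and 0 in the others. *si:dkey-10p5.10* (chromosome 6, 18520859 to 18523946), with no protein match, had 1.01, 1.05, 1.21 and 0.794 FPKM in WT. In 12_16, 1_19, 2_17 and 1_8_ysy labelled *flrt2*-KO it had 0.0800, 0.0765, 0.162 and 0 FPKM, or 4 reads in all.

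The group that read a gene also varied within itself. Across the 17 genes the mean FPKM was 0.801 to 9.78 with a median of 1.503, and across the 7 it was 0.999 to 3.13 with a median of 1.45. All covered genes with a mean of at least 0.6 FPKM had a median of 5.89 in their higher group, so most of the 24 were low. The coefficient of variation among the 4 high libraries was 10.7% to 107% for the 17 genes, with a median of 20.6%. It was 16.7% to 41.7% for the 7, with a median of 30.5%. *si:ch211-121a2.2* varied least and the short *FO904860.1* most. The library 2_17 was the highest of its group in 6 genes, 1_8_ysy in 6, 12_16 in 4 and 1_19 in 1.

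Some genes lay close to the thresholds. In the libraries labelled *flrt2*-KO, *rxfp2a* (lowest value 0.610 FPKM) and *slc16a12a* (0.699) were just inside, and *si:ch73-7i4.1* (0.574) and *ccdc151* (0.553) just outside. On the low side of the same genes, *zgc:162396* (highest WT value 0.166) and *si:ch211-11n16.3* (0.165) were just inside and *pkd1l2a* (0.203) and *arhgap4a* (0.217) just outside. Of genes read in WT, ENSDARG00000093349 (0.634) and *si:ch211-181d7.1* (0.759) were just inside, and *CR759879.1* (0.589) and *serpina1* (0.550) just outside. On their low side *cdc42ep4a* (0.169) and *si:dkey-10p5.10* (0.162) were just inside and *si:dkey-24p1.6* (0.201) and *etfbkmt* (0.225) just outside.

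By family, 6 of the 24 genes (25%) carried a NACHT, SPRY or SPRY-associated, C-type lectin or immunoglobulin V-set domain, against 176 of the 14590 expressed genes (1.21%). They were *btr07*, *si:dkey-286j15.3*, *si:ch211-181d7.1*, ENSDARG00000069381, ENSDARG00000093349 and *igsf9a*. These domains were grouped after the values had been seen, so nothing is read from the contrast of the shares. *igsf9a* has V-set among other immunoglobulin domains, and only 1 other gene had its protein match. No protein match was listed for 6 (25%), ENSDARG00000093349 of the domain group included, against 8.19% of the expressed genes, and 11 (45.8%) bore the name of a sequencing clone, against 15.6%. The median exon length was 1930 bases, against 2417.5. Of the 24, 21 were found by symbol in the RefSeq annotation of the assembly GRCz12tu, all on the chromosome of the same number. For ENSDARG00000091847 the symbol found may belong to its neighbour, and RefSeq lists both symbols as protein coding on chromosome 15. RefSeq classes 19 of these 21 as protein coding, *si:dkey-10p5.10* as a lncRNA and *si:dkey-104n9.1* as a misc_RNA.

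Relatives with the same protein match were listed for 9 of the 24 genes, and in 3 of these families none could be tested. The genes with the same protein match as *btr07* numbered 31, of which 12 had a mean of at least 0.6 FPKM, and 0 of the 11 tested were called. The nearest of them that was tested, *btr04*, starts 46.0 kb before *btr07* and had 4.68 ± 1.12 FPKM in WT and 6.08 ± 0.919 in the others (SD, n = 4). The relatives *ldb2a* (5.06 and 4.95 FPKM in WT and in the libraries labelled *flrt2*-KO), *slc16a12b* (5.17 and 4.76) and *igsf9b* (25.7 and 18.3) were read in both groups and not called. *rxfp2b*, the relative of *rxfp2a*, was barely read in either group, at 0.118 and 0.198 FPKM.

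In the stonustoxin family the called relatives moved the other way. Of the 27 relatives of *si:dkey-286j15.3*, 5 were tested and 3 were called, each downward in the libraries labelled *flrt2*-KO and so opposite to it, where 3.68% of annotated genes on these chromosomes were called in either direction. They were *si:ch211-214b16.2* (7.20 ± 1.02 to 2.18 ± 1.63 FPKM), *si:ch211-214b16.4* (2.48 ± 0.573 to 0.391 ± 0.151) and a relative that starts at 58188903 (2.13 ± 0.662 to 0.686 ± 0.177), given as WT and then the others (SD, n = 4). All 3 lie on chromosome 3, where *si:ch211-214b16.2* and *si:ch211-214b16.4* are close together, starting at 60314274 and 60338988. The tested relative *si:dkey-61p9.9*, which was not called, lies on chromosome 4, which the 3.68% leaves out. Beside *si:ch211-181d7.1*, its relative *si:ch211-181d7.3* starts 18.1 kb away and had 0.476 ± 0.110 FPKM in WT and 0.00213 ± 0.00426 in the others, or 243 reads against 1, the same direction as the gene but too low for the test. Reads of such similar genes may be shared between copies, and the counting of them is not described.

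The 24 genes were spread over 14 of the 23 chromosomes, and 6 were alone on theirs. Chromosome 9 held 4, of which *zgc:162396*, *il1rapl1a* and ENSDARG00000069381 were read in the libraries labelled *flrt2*-KO and lie between 28688574 and 33063083. No pair started within 200 kb of each other. The nearest pair was *pla2g6* and *si:dkey-286j15.3* on chromosome 22, 0.903 Mb apart. It was followed by *zgc:162396* and *il1rapl1a* at 1.03 Mb, *si:dkey-10p5.10* and *igfbp2a* on chromosome 6 at 2.401 Mb and *paqr3a* and *riok2* on chromosome 5 at 2.49 Mb. In each of these 4 pairs both genes were read in the same group. Since 17 of the 24 were read in 1 group, like pairs are frequent by number alone, and no share was set beside this.

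Other annotated genes near the 24 also differed between the groups. Within 100 kb of their starts 46 other annotated genes were tested and 15 were called (32.6%), against 3.68% of all annotated genes tested on these chromosomes. With no fold threshold the share was 34.8%, against 11.8% of all. All 15 moved in the direction of their neighbour and 0 in the opposite direction. The 15 lay around 9 of the 24 genes. *si:dkey-10p5.10* had 4 of them and *amn1* had 3, and without these 2 the share was 8 of 38 (21.1%). These neighbours come from the same libraries as the rule, so the share is a description, and neighbouring genes are not independent of each other. Reads of unannotated rows were not added to the neighbours, so their values here and below cover the annotated rows only.

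**Figure D2:**
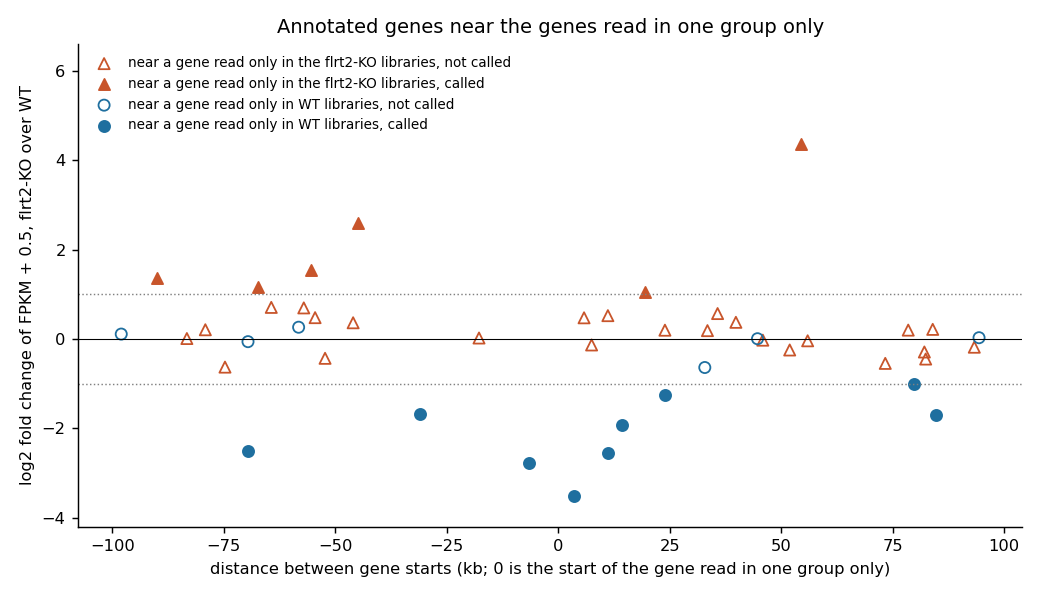
Log2 fold change of FPKM + 0.5, libraries labelled *flrt2*-KO over WT, of the 46 tested annotated genes within 100 kb of the 24, against the distance between gene starts in kb. Triangles lie near a gene read in the libraries labelled *flrt2*-KO and circles near a gene read in WT, filled where called. Dotted lines mark 2-fold, and all 15 filled points lie on the side of their neighbour.

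The longest run was on chromosome 6, around *si:dkey-10p5.10*. All 4 genes that could be tested within 100 kb of it, up to 84.8 kb away, had lower FPKM in the libraries labelled *flrt2*-KO. *utp6*, which encodes a factor of small ribosomal subunit assembly, had 8.86 ± 0.777 FPKM in WT and 0.370 ± 0.353 in the others (SD, n = 4). *suz12b*, a subunit of Polycomb repressive complex 2, had 4.63 ± 1.65 and 0.378 ± 0.278 FPKM, and *atad5b*, whose mammalian counterpart unloads the PCNA clamp, had 0.757 ± 0.232 and 0.0228 ± 0.0241. *znf207b*, which encodes a BUB3-interacting zinc finger protein, had 11.2 ± 2.01 and 3.09 ± 0.726 FPKM. The next tested gene on the other side, *p4hb*, 317 kb away, had 17.2 ± 0.677 and 17.5 ± 3.09 FPKM and was not called. The differences of *utp6*, *suz12b* and *znf207b* were larger in FPKM than that of *si:dkey-10p5.10* itself, and *atad5b* missed the rule in its WT values alone.

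On chromosome 25, 3 genes around *amn1* were lower in the same libraries. *nfybb*, a subunit of the transcription factor NF-Y, had 12.04 ± 1.92 FPKM in WT and 1.82 ± 0.818 in the others (SD, n = 4). *etfbkmt*, which encodes a mitochondrial lysine methyltransferase, had 1.72 ± 0.509 and 0.0764 ± 0.106, and ENSDARG00000097414 had 1.56 ± 0.581 and 0.135 ± 0.158. On chromosome 16 the lincRNA *CR855277.2*, 6.51 kb from *si:dkey-71b5.3*, had 3.04 ± 1.08 FPKM in WT and 0 in the others. Near *igfbp2a*, *cx44.2*, which encodes a gap junction protein, had 0.842 ± 0.241 and 0.162 ± 0.103 FPKM.

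Around the genes read in the libraries labelled *flrt2*-KO, the neighbours that were called were higher. Tested neighbours that were not called went both ways. *zgc:172014*, 54.4 kb from the lectin gene ENSDARG00000069381, had 0.592 ± 0.846 FPKM in WT and 18.5 ± 2.45 in the others (SD, n = 4). *rnaseh2b*, which encodes a subunit of ribonuclease H2 and lies 44.8 kb from *il1rapl1a*, had 0.381 ± 0.116 and 5.16 ± 2.09 FPKM. Beside *paqr3a* the annexin gene *anxa3a* had 10.1 ± 2.14 and 23.6 ± 6.35 FPKM, and *bmp2k*, a kinase gene, had 1.95 ± 0.420 and 6.66 ± 1.17. *si:ch73-7i4.1*, 89.997 kb from *zgc:162396*, had 0.0123 ± 0.0246 and 0.837 ± 0.179 FPKM, and *si:dkey-286j15.1*, 19.5 kb from *si:dkey-286j15.3*, had 1.09 ± 0.149 and 2.83 ± 0.677. Of the nearest tested genes before and after each of the 24, 11 of 48 were called, against 3.68% of all annotated genes tested on these chromosomes. For 15 of the 24 neither side was called. Untested genes can lie between, and the farthest such gene, called beside *slc16a12a*, starts 891 kb away.

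Possible copies of the 24 genes were then sought among the unannotated rows. Whether a matched row is a copy of its gene was not tested by sequence. A row was matched to a gene when it carried the same protein accession within 0.2 Mb on the same chromosome number. Of the 24 genes, 12 (50%) had such a row, all on alternate contigs, against 1392 of the 14590 expressed genes (9.54%). They were 9 of the genes read in the libraries labelled *flrt2*-KO and 3 of those read in WT. When the reads of the row were added to those of the gene and divided by the length of the gene, 0 of the 12 met the rule any longer. Added reads can only raise the low group, which must stay under 0.2 FPKM, so nothing is read from this count. The ranges of the groups overlapped in 8 of the 12, and the mean of the group that reads the gene over that of the other had a median ratio of 1.19. Overlap was not counted for the other expressed genes with a row.

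**Figure D3:**
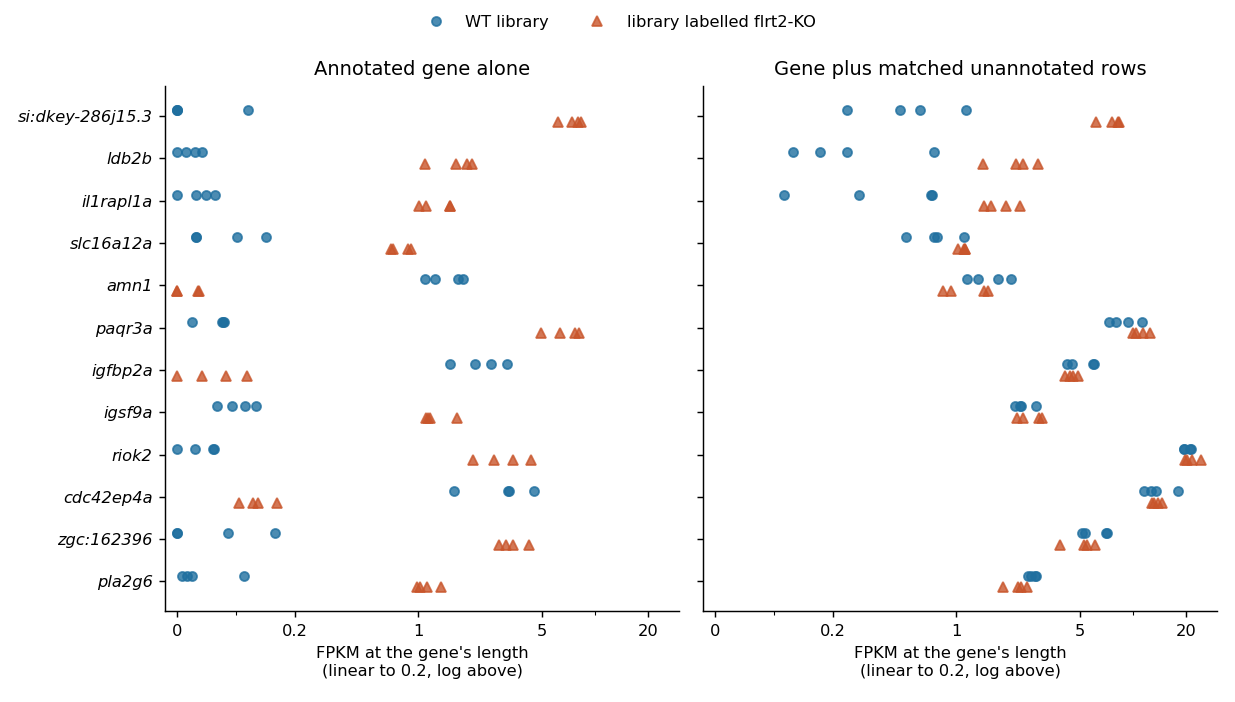
FPKM of the 12 genes with a matched unannotated row, for the annotated gene alone (left) and with the reads of the row added at the length of the gene (right). Circles are WT and triangles the libraries labelled *flrt2*-KO, on an axis linear to 0.2 and logarithmic above. Apart on the left in all 12, as the rule requires, the groups overlap on the right in 8.

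The row matched to *riok2*, on an alternate contig of chromosome 5, had 25.1 ± 1.22 FPKM in WT and 22.6 ± 2.11 in the libraries labelled *flrt2*-KO (SD, n = 4). Together with the gene this came to 20.3 ± 0.975 and 21.3 ± 2.004 FPKM, so that the annotated gene held 14.6% of the reads of its own high group. For *cdc42ep4a* the sum was 13.9 ± 2.80 and 13.6 ± 0.773 FPKM, and the annotated gene held 22.5% of the WT reads. For *igfbp2a* the sum was 5.16 ± 0.934 and 4.48 ± 0.318, and for *igsf9a* 2.39 ± 0.290 and 2.64 ± 0.411. In all 4 the values with the row added overlapped between the groups.

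In most genes with a matched row, the mean of the row moved opposite to that of the gene. The row of *ldb2b* did not, and the rows of *il1rapl1a* went both ways. The row of *igfbp2a* had 2.53 ± 0.396 FPKM in WT and 3.96 ± 0.311 in the others. That of *igsf9a* had 2.56 ± 0.304 and 1.55 ± 0.360, and that of *slc16a12a* 0.897 ± 0.244 and 0.362 ± 0.101. None of these was called. The sum for *slc16a12a* was 0.786 ± 0.242 and 1.09 ± 0.0433 FPKM. The row of *paqr3a* had 5.96 ± 1.16 FPKM in WT and 2.86 ± 0.538 in the others, where the gene had 0.0647 ± 0.0263 and 6.76 ± 1.44 (SD, n = 4). Their sum was 8.98 ± 1.73 and 11.0 ± 1.09 FPKM. The row of *amn1* was called higher, from 0.153 ± 0.133 to 1.55 ± 0.459 FPKM, while the gene itself was read in WT, and their sum was 1.56 ± 0.399 and 1.18 ± 0.344. The row of *zgc:162396* was called lower, from 6.28 ± 1.18 to 1.83 ± 0.750 FPKM, and the sum was 6.15 ± 1.07 and 5.18 ± 0.944. The row of *pla2g6* was called lower as well, from 5.36 ± 0.249 to 2.23 ± 0.5996. Its sum, 2.70 ± 0.143 and 2.23 ± 0.284 FPKM, was the 1 whose groups stood apart in the direction opposite to the gene.

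For 3 of the 12 the groups stayed apart in the direction of the gene. With its row, *si:dkey-286j15.3* had 0.240, 0.621, 1.13 and 0.480 FPKM in WT 12_16, 1_19, 1_8 and 1_8_ysy. In 12_16, 1_19, 2_17 and 1_8_ysy labelled *flrt2*-KO it had 6.19, 8.21, 7.63 and 8.34 FPKM, a ratio of means of 12.3. *il1rapl1a*, with 3 rows, had 0.460 ± 0.311 and 1.80 ± 0.379 FPKM (SD, n = 4), a ratio of 3.90. *ldb2b* had 0.325 ± 0.287 and 2.21 ± 0.618, a ratio of 6.82. A second row with the same protein name as *ldb2b*, sought after the values had been seen, brought it to 11.5 ± 3.90 and 8.36 ± 0.740 FPKM, where the groups overlapped.

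A wider match, by protein name or by overlap of at least 50% for genes with no protein match, was also chosen after the values were seen. It added *si:dkey-10p5.10*, whose sum of 2.06 ± 0.594 and 1.46 ± 0.442 FPKM overlapped between the groups, and *rxfp2a*, whose sum of 0.0825 ± 0.0474 and 1.71 ± 0.929 still met the rule. The other 10 genes had no matched row of either kind, and with *rxfp2a* they make 11 of the 24 that met the rule with all matched reads added. No reads were added to these 10, so they met the rule as chosen. For 5 of the 10, which have no protein match, a row could be found by overlap only. Of these 10, 4 carried the NACHT, SPRY, C-type lectin or V-set domains above. By position, 12 of the 24 (50%) lay wholly within the stretch covered by rows of an alternate contig, against 7.92% of the expressed genes. These are not the same 12. *zgc:162396* and *igsf9a* had a matched row but did not lie wholly within such a stretch. The row of *igsf9a* spans 19026820 to 19088492 and overlaps most of the gene. *si:dkey-10p5.10* and *si:ch211-11n16.3* lay wholly inside a stretch without a row of the same accession. Both counts rest on the same alternate-contig rows. Whether the 24 differ between the groups in sequence, copy number or transcription was not tested.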

How the data were processed

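RNA of 8 libraries, 4 WT and 4 labelled *flrt2*-KO, was sequenced as 150 bp paired reads. Filtered reads were aligned by the authors to GRCz11 (HISAT2 2.0.5) and assigned to genes (featureCounts 1.5.0-p3), and their deposited FPKM values, the only values used, were computed from these counts. The labels name the TruSeq kit and the methods NEBNext Ultra. Multiplied by gene length, 100% of the values were whole reads (tolerance 1e-06), 13423932 to 14835885 per library. These sums were 0.933 to 1.08 times the library size behind the FPKM, for reasons the sources used here do not give. Here log2(FPKM + 0.5) was tested with limma 3.58.1 (R 4.3.3, intensity trend, robust prior, Benjamini-Hochberg) over 21012 rows with at least 0.5 FPKM in at least 4 libraries. The same fit was also run on simulated data, with means taken from these libraries. Read ratios were divided by the library size behind FPKM, with exact binomial intervals. Tables and plots used Python 3.11.15, pandas 2.3.3, numpy 2.4.6, scipy 1.17.1 and matplotlib 3.10.9.

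The genes and lists were chosen with earlier results of these data known. Values in every library are given for the 8 genes with the highest mean among those read in the libraries labelled *flrt2*-KO, for all 7 read in WT, and for some others. The 2 genes nearest each threshold are named, and neighbours and matched rows where called or added. Symbols of 3 clone-named genes are replaced by their Ensembl identifiers. Domain families, wider matches and genes called near the 24 were named after their values were seen. Deviations from the group means correlated at r = 0.141, 0.122 and 0.106 in the 3 pairs that share a title suffix, and at -0.223 to 0.112 in unlike pairs, so the suffix was taken as a pairing in an alternative. Alternatives were other thresholds, scalings, pseudocounts, filters, windows, quantile normalization, voom on recovered reads, and each library left out. For voom, median-ratio factors took the place of TMM. A protein-copy count by sequence was not run, since protein sequences were not used here.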

Additional observations from a re-analysis of the deposited data

Results flagged for a closer look

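Of 48 groups of 4 values examined (each of the 24 genes in the group that reads it, and the sums with matched reads), 2 held a library far from the other 3, where chance alone gives about 1 in 20 such groups. In *igsf9a*, the library 1_8_ysy labelled *flrt2*-KO had 1.65 FPKM against 1.11 to 1.16 in the other 3, and its gap was 0.913 of the range of the group. In *si:dkey-71b5.3*, WT 1_8 had 1.73 FPKM against 2.87 to 3.09 in the other WT libraries, a gap of 0.838 of the range. Leaving out a library can only loosen the rule, so each gene had to meet it without that library.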

How the results depend on the processing

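The numbers of genes read in the libraries labelled *flrt2*-KO (17) and in WT (7) moved with the thresholds. They were 8 and 3 with the low group under 0.1 FPKM, 2 and 2 with 0 reads in it, 10 and 4 with the high group at 1 FPKM, and 39 and 28 with it at 0.3. They were 8 and 4 with reads of matched rows added, and 8 and 3 with the wider match chosen after seeing the data. The 8 and 4 are the genes without a matched row, whose values did not change, so nothing is read from that count. Over annotated rows of every biotype on the same chromosomes, still without 4 and 18, the numbers were 23 and 11. With 1 library left out they ranged from 17 to 21 and from 8 to 14. Leaving out a library can only loosen the rule, so all 24 had to be kept and the counts could not fall. The highest, 14, was without WT 12_16. Equal column sums and totals of recovered reads gave 16 and 8 each. By limma, 17 higher and 7 lower became 10 and 4 with a filter at 1 FPKM, which left only these to test, and 11 and 4 with reads of matched rows added. In the last of these, the 8 and 4 genes without a matched row kept their values. With a pseudocount of 1 the calls were 16 and 5, all 24 still being tested. Leaving out 1 library gave 17 to 17 and 7 to 7, and the replicate block for the title suffix, which pairs 3 libraries of each group, also gave 17 and 7 and changed no call of a listed gene. Within 1 Mb, 2 genes had another of the 24 nearby, where 0 did within 200 kb. The share of neighbours called, 32.6% within 100 kb, was 18.75% within 500 kb. The 12 genes with a matched row stayed 12 in windows of 0.05 and 1 Mb. The count of near-identical protein copies planned for this comparison was not run. In the low group the 24 held a median of 5 reads per gene. For the 4 with 0 reads there, a low rate and no expression were not distinguishable at this depth. The others held reads there, and whether these came from the gene itself or from a similar sequence was not tested.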
